A study of Homo sapiens with 42 samples.

Results

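The comparison described here is 48 h of BMI1 hairpin induction in RPMI-8226, an established human multiple myeloma line. Its members are the 6 arrays, of 42 in the series, whose titles name the Bmi1-shRNA line at 48 h: 3 with doxycycline and 3 without. The cells had been stably infected with a doxycycline-inducible short hairpin RNA against BMI1, and both groups carried it; the induced group received 100 ng/ml doxycycline and the other group none. A second RPMI-8226 line with an inducible control hairpin (Ctl-shRNA) was measured at 48 h with and without the same dose, again on 3 arrays each, and serves here as the check on doxycycline. Each hairpin is represented by 1 line, so the hairpin and the line that carries it cannot be told apart, and the labels number the replicates without calling them separate cultures. The p-values therefore measure only the spread between these arrays, which may be technical. Doxycycline effects in the Bmi1-shRNA line at 24 and 32 h, each from 3 arrays against 3, are set beside those at 48 h.

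BMI1 is a subunit of Polycomb repressive complex PRC1, whose RING1 or RNF2 subunit ubiquitinates histone H2A and which compacts chromatin over developmental genes and the CDKN2A locus. PRC2, with the methyltransferase EZH2, places the histone H3 mark that part of PRC1 reads through its CBX subunits. Myeloma cells are transformed plasma cells: they depend on the regulators IRF4, PRDM1 and XBP1 and secrete protein through an enlarged endoplasmic reticulum. A short hairpin RNA is processed to a small interfering RNA that lowers transcripts it pairs with, so a lower level is the direct readout of the induced hairpin for its target.

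Signals are linear MAS5 intensities from Affymetrix U133 Plus 2 arrays, whose precision is limited by 3 arrays per group. Every array had the same trimmed mean (150.02 on the 12 arrays at 48 h), and the median signal ranged from 17.4 to 22.5. Across genes, arrays of a group correlated at 0.979 to 0.983. The 3-prime to 5-prime ratio of GAPDH, which rises in degraded RNA, was 0.92 to 0.9725 in the Bmi1-shRNA line without doxycycline and 0.9274 to 0.9418 with it, against 0.9961 to 1.049 in the control line. The plasma cell regulators IRF4, PRDM1 and XBP1 and the surface proteins SDC1, CD38 and TNFRSF17 read between 516 and 2123 in the undosed Bmi1-shRNA arrays. Of 20 measured plasma cell genes 5 had means under 100 there. Of 15 naive B cell genes 10 were under 100 on those arrays and 13 on the undosed control arrays. Their summed signal was 3280 to 3747 and 811 to 881, respectively. The measured T cell (4), monocyte (4) and erythroid (2) markers were all under a mean signal of 100, and so were 2 of 3 fibroblast markers, whose summed signal was 135.6 to 176.1 without and 129.9 to 171.4 with doxycycline. Of 5 epithelial markers 4 were above 100. Their summed signal was 6493 to 6654 without and 5970 to 6368 with doxycycline, and all 5 had values below 0 (median -0.19, against -0.06 in the control line). No marker of the T cell, monocyte, erythroid, fibroblast, epithelial or naive B cell lists passed the test. The part of these lists in the results was not tested.

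BMI1 itself was the check on the labels. Its probe set read 884.0, 1051 and 1129 on the 3 arrays without doxycycline and 188.0, 149.0 and 139.8 on the 3 arrays with it. The groups were far apart, with the highest induced array well below the lowest uninduced one. On the log2 scale BMI1 changed by -2.65 ± 0.10 (standard error, SE; limma adjusted p = 1.5e-21), from a mean signal of 1021 ± 125 to 159 ± 25.6 (SD, n = 3 each). The same probe set in the control line read 1117, 1222 and 1137 without and 1184, 1205 and 1230 with doxycycline, a log2 fold change of 0.06 ± 0.10. The effect in the Bmi1-shRNA line minus that in the control line, called the line difference below, was -2.71 (limma adjusted p = 8.78e-17). COMMD3, the neighbouring gene that shares a readthrough transcript with BMI1, changed by -0.21 ± 0.09 and did not pass (adjusted p = 0.243).

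With the BMI1 hairpin induced, 790 of 14705 genes passed a limma adjusted p under 0.05, which is 5.37% of those tested. Falls outnumbered rises: 573 genes fell (3.9%) and 217 rose (1.48%). The falls were also larger, with a median size of 0.44 on the log2 scale against 0.33 for the rises, while the median over all genes was 0.0013. A change of at least 2-fold was reached by 47 falls and 5 rises. Restricted to genes with a mean signal of at least 100 over the 6 arrays, 28 falls and 0 rises were that large. The count was 462 when only the 12 arrays at 48 h were fitted and 1348 over single probe sets. Of 162 called genes named here, 87 kept the call in every setting and left-out array tried. In 771 of the 790 genes the induced and uninduced arrays did not overlap. Over all genes tested, arrays failed to overlap in 8.7% with the induced group higher and in 10.3% with it lower.

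The share of genes called differed with brightness. Above a mean signal of 100, 6.49% of 8061 genes fell and 2.44% rose, and below it 0.753% of 6644 fell and 0.301% rose. In simulated data with independent noise and changes of known size the same fit recovered 42% of changes of log2 0.5 and 66% of changes of log2 1. Small changes are thus under-represented among the calls. Recovery was not split by signal, so whether changes of dim genes were missed more often was not tested.

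**Figure D1:**
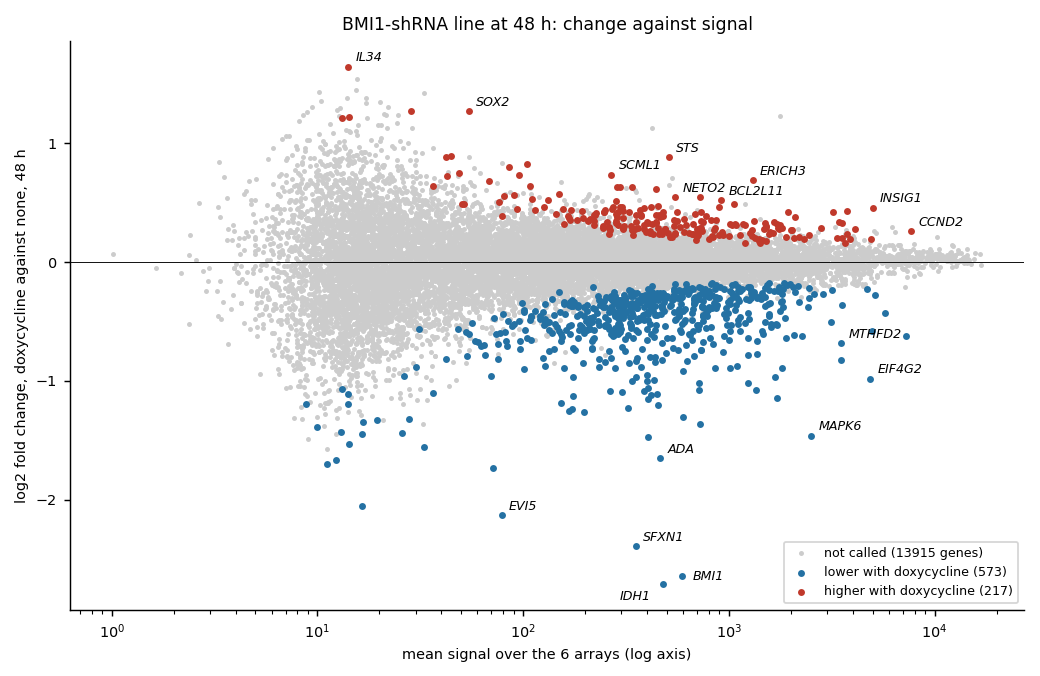
Log2 fold change with doxycycline in the Bmi1-shRNA line at 48 h (vertical axis) against the mean signal over the 6 arrays (horizontal log axis), 1 point per gene, with the 573 falls in blue and the 217 rises in red. Falls reach below -2 for bright genes (BMI1, IDH1, SFXN1), whereas called rises with a signal of at least 100 stay under 1.

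Beside BMI1, the bright genes that fell furthest were IDH1 and SFXN1. IDH1, an isocitrate dehydrogenase that makes NADPH in the cytosol, read 714.8, 770.5 and 1016 without doxycycline and 117.1, 121.6 and 126.1 with it, a drop as deep as that of BMI1. The change was -2.71 ± 0.11 on the log2 scale (limma adjusted p = 5.61e-21), and 3 of 3 retained probe sets were lower. IDH1 changed by 0.20 in the control line, and the line difference was -2.91. SFXN1, a mitochondrial serine transporter, read 656.6, 566.4 and 574.3 without and 105.2, 108.5 and 115.5 with doxycycline (log2 fold change -2.39 ± 0.08, limma adjusted p = 6.63e-24). The 3 induced arrays lay far below the others, although only 2 of its 3 probe sets were lower. EVI5, a TBC-domain regulator of Rab GTPases and the cell cycle, changed by -2.13 ± 0.20 from a mean of 131 to 25.9, with 1 of 2 probe sets lower.

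ADA, adenosine deaminase of the purine salvage route, read 665.7, 736.0 and 717.3 without and 243.6, 210.1 and 211.3 with doxycycline, a change of -1.65 ± 0.08 (limma adjusted p = 5.8e-19). MAPK6, the atypical MAP kinase ERK3, was among the brightest large falls: 3614, 3736 and 3716 became 1270, 1373 and 1362, a change of -1.46 ± 0.06 (limma adjusted p = 2.53e-21). The zinc importer SLC39A10 read 582.4, 604.5 and 597.6 without and 197.3, 211.3 and 225.4 with doxycycline (-1.47 ± 0.07). These 3 genes in the control line changed by 0.06, -0.06 and 0.01 on the log2 scale, and none passed the test there.

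SLITRK5, a neuronal transmembrane protein, was lower with doxycycline in both lines. It read 105.7, 115.0 and 115.5 without doxycycline and 27.0, 42.2 and 23.2 with it in the Bmi1-shRNA line (-1.73 ± 0.16). In the control line it read 151.6, 152.2 and 143.9 without and 58.9, 55.0 and 61.7 with it (-1.28), so the groups were apart in both lines. The line difference was -0.46 and did not pass (limma adjusted p = 0.442). Of the 12 lowest changes, 5 more belonged to dim genes with an undosed mean of at most 50.9: LINC01569, the netrin receptor DCC, SNX8, USP51 and LSMEM1. None of these 5 passed in the line difference either (adjusted p from 0.0714 for USP51 to 0.469 for LINC01569). The call of each was lost when at least 1 array was left out. That of SNX8 was lost in all 10 other settings that kept the gene and without any of 6 single arrays.

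Large falls among bright genes reached further functions. The 28 genes that fell at least 2-fold with a mean signal of at least 100 (BMI1 included, and listed after their values were seen) all had separate groups. In the control line their log2 fold changes ran from -0.18 to 0.20 and none was called. The line difference was called lower for 27 of them (2.57% of all genes were called in that comparison, 2.15% lower), the exception being HINT3 (adjusted p = 0.0782). Signalling and survival genes among them included API5, an inhibitor of apoptosis (-1.37), TP53INP1, a p53-induced stress protein (-1.26), the ribosomal S6 kinase RPS6KA2 (-1.18), the death-associated kinase STK17B (-1.12) and the G-protein subunit GNA12 (-1.08). API5 read 987.8, 1029 and 1111 without and 397.6, 412.5 and 392.5 with doxycycline, and all 5 of its probe sets were lower.

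Lipid and mitochondrial genes in the same group were DEGS1, the dihydroceramide desaturase (-1.21), GPAT3, an acyltransferase of glycerolipid synthesis (-1.13), FDX1, the mitochondrial ferredoxin (-1.08), and MRPL10, a subunit of the large mitochondrial ribosome (-1.30). Cytoskeletal regulators were TWF1, which binds actin monomers (-1.15), GMFB (-1.06), CD2AP, an adaptor at actin-rich contacts (-1.11), and MAPRE1, the microtubule plus-end protein EB1 (-1.14, from 2353 to 1063). The remainder included HIRA, a chaperone of histone H3.3 (-1.23), DONSON, a replication fork protein (-1.02), PDIA4, a disulfide isomerase of the endoplasmic reticulum (-1.02), VMA21, an assembly factor of the vacuolar proton pump (-1.08), the ubiquitin ligase RNF144B (-1.24) and the heparan sulfate proteoglycan SDC2 (from 453 to 223).

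**Figure D2:**
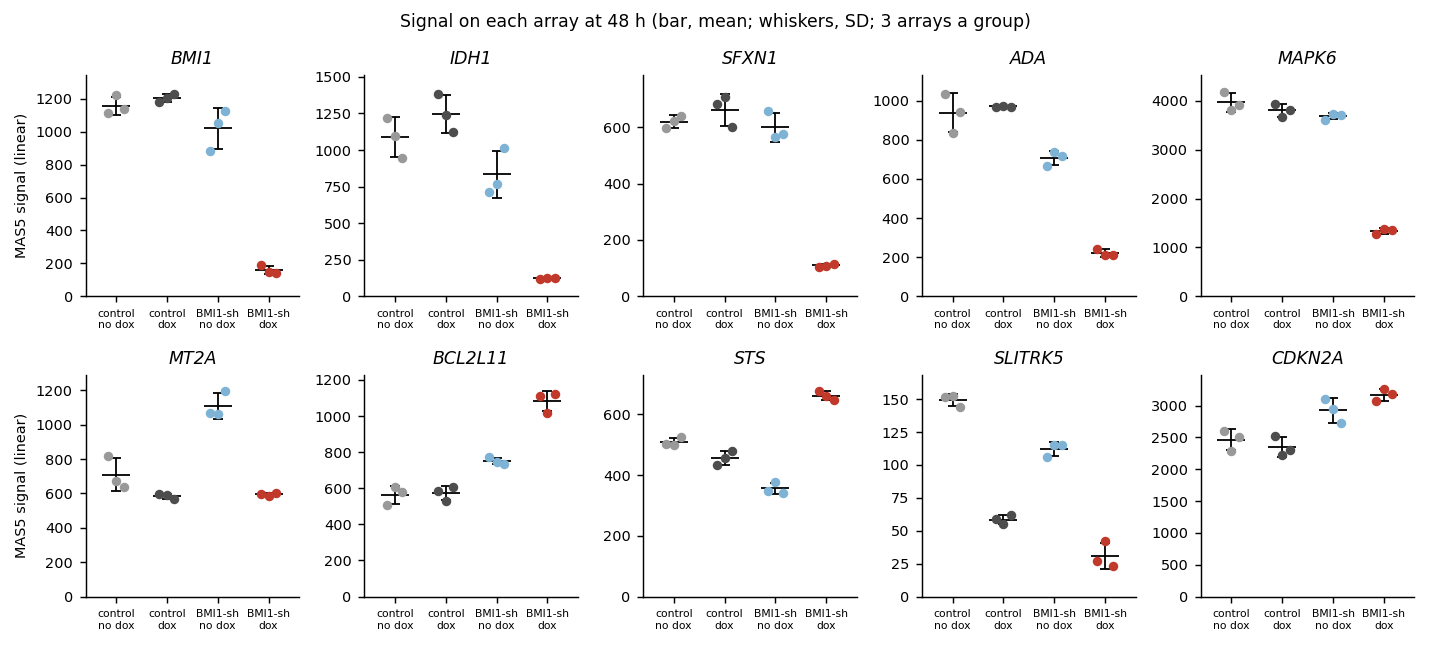
MAS5 signal (linear axis from 0) of 10 genes on each of the 12 arrays at 48 h: dots are arrays, the bar is the mean and the whiskers are SDs (n = 3). BMI1, IDH1, SFXN1, ADA and MAPK6 were low only in the induced Bmi1-shRNA arrays of these 4 groups, BCL2L11 and STS were raised there above the uninduced arrays of that line, SLITRK5 was lower with doxycycline in both lines, and CDKN2A overlapped between dosed and undosed arrays in both.

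Rises were smaller, and the largest lay at low signals. IL34, a ligand of the CSF1 receptor, rose by 1.65 ± 0.47 from a mean of 3.9 to 24.3, and ZMAT4, ZNF571-AS1, LINC02622, PTPRD and CCDC107 also had undosed means of at most 30.4. Leaving out single arrays ended the call of each of these 6 except ZNF571-AS1, and none of the 6 passed in the line difference. ZNF571-AS1 went from a mean of 12.2 to 22.2 with doxycycline in the control line, where its groups did not overlap either (0.65, not called; line difference adjusted p = 0.645), and LINC02622 changed there by 0.48. SOX2, a pluripotency and neural transcription factor whose gene is a textbook Polycomb target, read 26.8, 35.0 and 27.8 without and 80.3, 81.6 and 76.0 with doxycycline (1.27 ± 0.17, limma adjusted p = 1.55e-06). Its groups were apart and its line difference was 1.27 (adjusted p = 0.00114), but the mean over its retained probe sets was not called. In the undosed control line SOX2 was higher than on any Bmi1-shRNA array at 48 h, at 159.8, 114.5 and 201.0.

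Among bright genes STS, the steroid sulfatase, rose most. It read 349.3, 377.7 and 342.0 without and 678.7, 661.7 and 646.6 with doxycycline, with no overlap, a change of 0.89 ± 0.06 (limma adjusted p = 1.27e-13) shared by 4 of 4 probe sets. The control line showed a change of -0.15, and the line difference was 1.04. SCML1, a Polycomb-group related protein, rose by 0.74 ± 0.10, from 200 to 337. ERICH3 read 972.8, 1043 and 969.1 without and 1630, 1387 and 1834 with doxycycline (0.69 ± 0.10), and NETO2, an auxiliary subunit of glutamate receptors, 441.4, 432.8 and 460.6 against 682.7, 652.3 and 624.3 (0.55 ± 0.05). Each of these rises kept its sign and call in all settings and left-out arrays tried. ING5, an acetyltransferase-complex subunit (0.83), SNX30 (0.64), the palmitoyltransferase ZDHHC7 (0.64), CEP85 (0.63), the RNA-binding KHDRBS3 (0.63), the collagen chaperone SERPINH1 (0.61), ENC1 (0.57) and TNRC6A, a scaffold of microRNA silencing (0.55), completed the 12 largest rises of bright genes. SNX30, CEP85 and KHDRBS3 did not pass in the line difference (limma adjusted p = 0.132, 0.0862 and 0.195). Their calls were each lost when at least 1 array was left out. Those of ING5 and TNRC6A were lost with averaged probe sets.

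Few other Polycomb genes passed. Of 17 measured PRC1 subunits other than BMI1, 1 fell (5.9%, against 3.9% of all genes) and 0 rose. It was PCGF3, a relative of BMI1 in variant complexes, at -0.60 ± 0.18 from a mean of 66.8 to 42.2. That call was lost in 4 of 10 other settings and without any of 4 single arrays, 3 of 5 probe sets were lower, and the line difference did not pass (adjusted p = 0.114). RING1 changed by 0.05, PCGF2, the closest relative of BMI1, by -0.06, and the median over the list was 0.05. None of 11 PRC2 subunits passed in the Bmi1-shRNA line, with EZH2 at 0.08 ± 0.05. In the line difference 1 of the 11 was called higher and 0 lower, beside 0.422% and 2.15% of all genes. RNF2 was not tested, since none of its probe sets passed the filter with 1 symbol. Of 17 measured HOX genes none passed (median 0.01), and SOX2 was the 1 of 21 other developmental regulators that did. Of these, 16 HOX genes and 20 developmental regulators had a mean signal under 100, where 0.753% of all genes fell and 0.301% rose, so a lack of calls is no result about these lists.

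CDKN2A, which encodes the cell cycle inhibitor p16 and is the best known BMI1 target, read 3104, 2953 and 2721 without and 3064, 3258 and 3175 with doxycycline. The groups overlapped, and the change of 0.12 ± 0.07 did not pass (adjusted p = 0.436). CDKN2B (-0.44) and CDKN1A (-0.05) did not pass either, at mean signals under 100. Of 7 CDK inhibitors CDKN1B rose by 0.21, beside 0.17 in the control line (not called there), and CDKN3, a phosphatase acting on cyclin-dependent kinases, fell by 0.40 on the log2 scale.

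Of 60 G1/S and replication genes, 7 fell (11.7%) and 3 rose (5.0%), with a median change of 0.004. Among all bright genes 6.49% fell and 2.44% rose, and 1 of the 60 was under a signal of 100. DTL, which directs degradation of replication-licensing proteins, fell from 1694 to 1062 on the probe set used (-0.67 ± 0.06), whereas its other one, brighter on these arrays, changed by -0.01 and did not pass; their average gave -0.34. The sliding clamp PCNA fell from 6554 to 4866 (-0.43 ± 0.07) and TIPIN, a fork-protection protein, from 1429 to 1062 (-0.43 ± 0.05). PRIM1, POLD3, CHAF1A and DSCC1 also fell, and CCND2, MCM7 and ORC6 rose. Of 64 G2/M genes, KIF4A (-0.61) and AURKA (-0.50) fell (3.1%), FOXM1 (0.28) rose (1.6%), and the median was 0.004. The proto-oncogene MYC, at 8148 without and 8644 with doxycycline, changed by 0.09 ± 0.09 and did not pass.

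Apoptosis genes split. BCL2L11, which encodes the pro-apoptotic BH3 protein BIM, read 772.1, 743.7 and 737.2 without and 1110, 1020 and 1120 with doxycycline. All induced arrays exceeded all uninduced ones, the change was 0.52 ± 0.08 (limma adjusted p = 7.69e-06), and all 7 of its probe sets were higher. In the control line it changed by 0.02, and the line difference was 0.50 (adjusted p = 0.00493). Of the other 9 measured pro-apoptotic BCL2 family genes only the mitophagy receptor BNIP3L passed, and it fell (-0.52 ± 0.06); PMAIP1 changed by 0.10 and did not pass. BCL2 (-0.05) and MCL1 (0.14) did not pass. Of 16 caspase and death receptor genes 3 fell (18.8%, against 6.49% of bright genes), namely CASP1 (-0.57), RIPK2 (-0.35) and DIABLO (-0.19). Of these, CASP1 passed in the line difference (adjusted p = 0.038). The other probe set of RIPK2 changed by 0.10 and its call was lost with averaged probe sets, and that of DIABLO was lost in 5 of 11 other settings and without any of 5 single arrays. Of 25 p53 targets 3 fell, namely the death receptor FAS (-0.81 ± 0.10), TP53INP1 and RRM2B (-0.43), and none rose. Beside this count, 3.9% of all genes and 6.49% of bright genes fell. The count rests on 3 members, and the call of TP53INP1 was lost with averaged probe sets.

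The zinc list held the largest share of falls among the 48 gene lists. The lists were chosen with earlier results of these data known, so the rank is only descriptive. Of 24 measured zinc transporters, metallothioneins and their regulator MTF1, 8 fell (33.3%, against 3.9% of all genes and 6.49% of genes with a mean signal of at least 100) and none rose, with a median change of -0.15. Of the 8, 5 were metallothioneins, whose probe sets share probes and are not independent members. Of the 17 zinc transporters tested, SLC39A10, SLC30A1 and SLC30A9 fell. Metallothioneins are small cysteine-rich proteins that bind zinc and copper, and zinc induces their genes through MTF1, which binds metal response elements in the promoter. SLC39A10 brings zinc into the cytosol and SLC30A1 exports it across the plasma membrane. The importer changed most (-1.47, above), followed by MT1E, MT2A, SLC30A1, MT1H, MT1X, MT1G and SLC30A9.

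Of 6 called zinc genes with a promoter sequence 4 held the core of a metal response element (66.7%), and SLC39A10 and SLC30A9 held none. To show those letters, the promoters of MT2A, MT1H, MT1X and SLC30A1, chosen because they hold them, are given from RefSeq (GRCh38.p14), from 250 bases before to 50 after the gene start, 5′ to 3′ on the coding strand. Capitals mark the core of the metal response element, searched as TGCACNC or TGCGCNC on either strand. The search was added after the values were seen. They lie at chr16:56608334-56608633 (MT2A, plus strand), chr16:56669564-56669863 (MT1H, plus strand), chr16:56682220-56682519 (MT1X, plus strand) and chr1:211579112-211579411 (SLC30A1, minus strand).
MT2A: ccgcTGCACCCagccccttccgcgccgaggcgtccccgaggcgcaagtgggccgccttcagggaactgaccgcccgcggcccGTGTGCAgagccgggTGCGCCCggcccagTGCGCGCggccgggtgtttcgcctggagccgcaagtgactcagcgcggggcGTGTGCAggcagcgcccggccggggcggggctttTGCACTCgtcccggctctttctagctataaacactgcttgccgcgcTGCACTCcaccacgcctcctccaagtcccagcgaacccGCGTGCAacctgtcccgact
MT1H: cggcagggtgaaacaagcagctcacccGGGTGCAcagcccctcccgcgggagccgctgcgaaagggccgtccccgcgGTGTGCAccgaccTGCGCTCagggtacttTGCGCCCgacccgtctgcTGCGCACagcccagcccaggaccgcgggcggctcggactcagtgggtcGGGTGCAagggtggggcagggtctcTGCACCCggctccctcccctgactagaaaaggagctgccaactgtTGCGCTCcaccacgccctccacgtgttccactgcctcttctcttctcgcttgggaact
MT1X: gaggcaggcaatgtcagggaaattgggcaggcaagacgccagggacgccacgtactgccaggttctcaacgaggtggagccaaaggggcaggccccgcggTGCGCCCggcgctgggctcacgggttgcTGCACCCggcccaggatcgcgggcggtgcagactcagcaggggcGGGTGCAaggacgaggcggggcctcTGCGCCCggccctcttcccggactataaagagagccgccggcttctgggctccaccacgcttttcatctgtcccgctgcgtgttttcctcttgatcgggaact
SLC30A1: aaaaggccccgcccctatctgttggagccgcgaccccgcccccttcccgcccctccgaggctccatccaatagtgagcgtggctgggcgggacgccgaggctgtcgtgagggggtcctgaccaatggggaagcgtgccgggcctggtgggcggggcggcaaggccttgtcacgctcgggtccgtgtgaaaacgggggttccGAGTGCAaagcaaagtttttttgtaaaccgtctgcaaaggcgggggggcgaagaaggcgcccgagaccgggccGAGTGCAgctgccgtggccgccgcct
MT2A and MT1H held 8 matches each, MT1X 4 and SLC30A1 2. Among all 11732 tested genes with a promoter sequence, 37.4% held a match, among the 482 falls 44.6%, among the 184 rises 36.4% and among the 19 zinc genes with a promoter 42.1%. A single match is thus common in any window of this length, and these letters mark no measured site.

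MT2A read 1068, 1065 and 1197 without doxycycline and 596.4, 586.6 and 602.7 with it in the Bmi1-shRNA line, so the groups were well apart. It changed by -0.89 ± 0.08 on the log2 scale (limma adjusted p = 7.07e-11). In the control line it read 816.4, 673.7 and 639.7 without and 595.4, 588.9 and 565.7 with doxycycline (-0.27, adjusted p = 0.415), and the line difference was -0.62 (adjusted p = 0.000366). The uninduced Bmi1-shRNA arrays were thus the high ones, and the induced arrays lay near the dosed control arrays. MT1E read 340.1, 373.2 and 368.7 without and 161.7, 153.7 and 188.4 with doxycycline (-1.08 ± 0.12), and SLC30A1 835.4, 934.3 and 993.4 against 586.3, 507.1 and 551.2 (-0.74 ± 0.11). MT1H (-0.72), MT1X (-0.69) and MT1G (-0.61) followed, SLC30A9, a zinc carrier of mitochondria, changed by -0.24, and MT1F at -0.20 did not pass. MTF1 itself changed by -0.09 ± 0.12 and did not pass. The line difference was called lower for SLC39A10, SLC30A1, MT1E, MT1H and MT2A. Metallothionein genes are near-identical copies, and all 6 probe sets here carry the array maker's suffix for probes shared between transcripts, so their signals are not independent and which copy fell is uncertain.

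**Figure D3:**
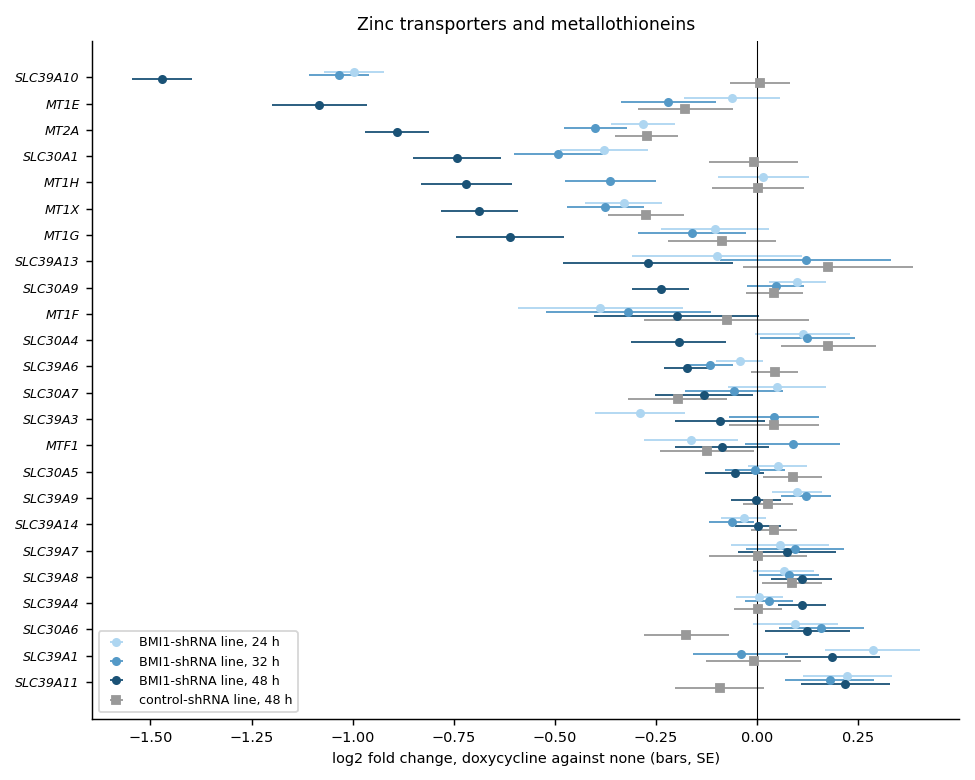
Log2 fold change with doxycycline (horizontal axis, bars are SEs) of the 24 measured genes of the zinc list in the Bmi1-shRNA line at 24, 32 and 48 h (light to dark blue) and in the control-shRNA line at 48 h (grey squares). The metallothioneins other than MT1F lie farther to the left at 48 h than at 24 h, with a median over the 6 of -0.70 at 48 h against -0.19 at 24 h and -0.13 in the control line.

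Plasma cell genes showed the largest share of rises among the 48 gene lists, a rank that is again only descriptive. Of 20 measured members 6 rose (30%, against 1.48% of all genes and 2.44% of genes with a signal of at least 100) and none fell. These were the surface markers SDC1 (0.41), CD38 (0.30) and TNFRSF17, the BCMA receptor (0.20), and the transcription regulators IRF4 (0.28), PRDM1 (0.23) and POU2AF1 (0.20). All were small, from 1341 to 1629 for IRF4 and from 2168 to 2489 for POU2AF1. TNFRSF17 changed by 0.24, PRDM1 by 0.16 and IRF4 by 0.10 in the control line, where none was called, and the line difference was called for none of the 20. Only IRF4 of the 6 kept its call in all settings and left-out arrays. Of the 20 members 12 were above 0 and 8 below, and 5 had a mean signal under 100. Summed over the 20, the signal was 35276 to 44131 without and 40750 to 42770 with doxycycline in the Bmi1-shRNA line, so the groups overlapped. The 15 measured naive B cell genes had no call, with a median of -0.11 and of -0.27 in the control line.

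Protein handling and amino acid supply contained some of the brightest falls. Of 32 unfolded protein response and folding genes 4 fell and 2 rose: PDIA4 (from 1659 to 818), EDEM1 (-0.37), UGGT1 (-0.25) and DERL1 (-0.25) fell, and DNAJB9 (0.31) and ERN1 rose. The call of UGGT1 was lost in 6 of 11 other settings. Of 31 ATF4-regulated genes 4 fell (12.9%) and none rose: the cystine transporter SLC7A11 (-0.97 ± 0.14), the mitochondrial folate enzyme MTHFD2 (-0.68 ± 0.08, from 4345 to 2705), the arginine transporter SLC7A1 (-0.48) and the leucine transporter SLC7A5 (-0.30). All 4 also passed in the line difference. Of 30 translation factors 3 fell, led by EIF4G2, which supports cap-independent initiation (-0.98 ± 0.07, from 6444 to 3274; -0.25 and not called when averaged with 2 dim probe sets), with EIF2S1 (-0.45) and EIF3J (-0.24). None of 24 cytosolic ribosomal protein genes passed.

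Mitochondrial and nucleotide genes fell in scattered members. Of 25 serine and one-carbon genes the 3 that fell, SFXN1, MTHFD2 and the folate carrier SLC25A32 (-0.58), are all mitochondrial. Of 60 mitochondrial translation genes 5 fell, led by MRPL10 and followed by MRPS10 (-0.42) and the elongation factor GFM1 (-0.37). Other probe sets of MRPS10, of similar brightness, changed by -0.08 and -0.18 and did not pass. Of 54 oxidative phosphorylation genes only ATP5PB (-0.58) and NDUFB6 (-0.19) fell, and of 26 tricarboxylic acid and NADPH enzymes only IDH1 and IDH3A (-0.19). The call of IDH3A was lost in 6 of 11 other settings and without any of 4 single arrays, although its other probe sets read -0.42 and -1.20. Of 32 purine and pyrimidine genes ADA, the deoxynucleoside kinase DCK (-0.65) and AMPD3 (-0.36) fell. Medians of these lists lay between -0.037 and 0.005, beside 0.0013 for all genes.

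Single receptor and signalling genes fell. IL6ST, the gp130 subunit through which interleukin-6 signals, went from a mean of 2228 to 1141 (-0.96 ± 0.11, limma adjusted p = 2.25e-08), with all 5 probe sets lower. IFNAR1, an interferon receptor chain, changed by -0.74 and IGF1R rose by 0.31. The call of IGF1R was lost in 6 of 11 other settings and without any of 4 single arrays. Among 25 MAP kinases MAP3K5, the stress kinase ASK1 (-0.89 ± 0.11), and MAP3K4 (-0.54) fell beside MAPK6, and MAPK9 rose (0.25). JUN, an AP-1 subunit, was the 1 of 26 immediate early genes that passed (-0.51 ± 0.11). Of 21 NF-kB genes LTB (-0.59), CD83 (-0.51) and ICAM1 (-0.37) fell. SAMD9L rose and CXCL10 fell among 34 interferon-stimulated genes, and SAMD9L also rose in the control line.

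Secretory pathway and sterol genes gave further single changes. RAB2A, a GTPase between endoplasmic reticulum and Golgi, fell from 856 to 494 (-0.79 ± 0.06) on the probe set used. All 6 of its probe sets were lower, but the brightest on these arrays changed by -0.23 and did not pass (limma adjusted p = 0.0805). VAMP7 (-0.35), SEC24B (-0.30), LMAN1 and BET1 also fell among 54 transport genes. The call of LMAN1 was lost in 8 of 11 other settings, and its other 2 probe sets were not lower. The mannosidase MAN1A1 (-0.89 ± 0.10) and PIGA, which starts GPI anchors (-0.56 ± 0.09), were the falls among 52 glycosylation genes. In cholesterol synthesis the cyclase LSS fell (-0.53 ± 0.07) while INSIG1, which retains the SREBP activator, rose from 4210 to 5782 (0.46 ± 0.07). Of 64 chromatin modifiers outside Polycomb the acetyltransferase KAT2B (-0.60), ARID2 (-0.55), KDM7A (-0.53), KMT2C (-0.36) and KDM1A (-0.31) fell and NSD2 rose. The shares that fell were 9.3% of transport, 3.8% of glycosylation, 5.0% of cholesterol synthesis and 7.8% of chromatin genes. Over all genes 3.9% fell, and 6.49% of those with a signal of at least 100.

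**Figure D4:**
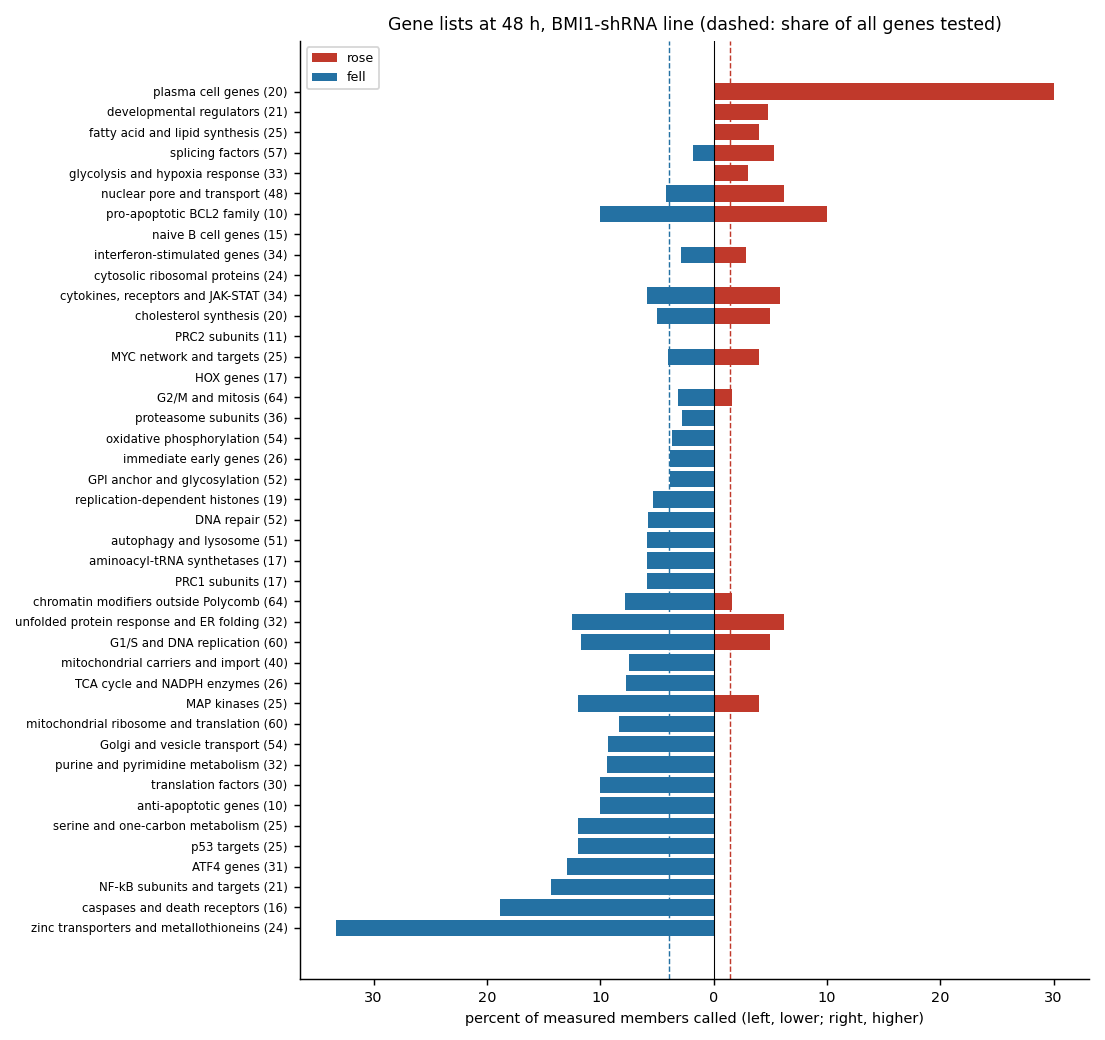
Percent of measured members of each gene list that rose (red, right) or fell (blue, left) in the Bmi1-shRNA line at 48 h, for lists with at least 10 members measured (number in brackets), with dashed lines at the shares over all genes (1.48% rose, 3.9% fell). Zinc genes (33.3% fell) and plasma cell genes (30% rose) lie farthest from the dashed lines, and the PRC2 and HOX lists have no call, with 16 of the 17 HOX genes under a signal of 100.

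The control line responded little to doxycycline at 48 h: 7 of 14705 genes were called (0.0476%; 3 higher, 0.0204%, and 4 lower, 0.0272%), and 873 had an unadjusted p under 0.05. SAMD9L (0.37), the caveolar protein CAV1 (0.34) and the choline transporter SLC44A1 (0.29) rose, and SLITRK5, SLC18B1 (-0.75), the spliceosomal CWC27 (-0.49) and CHPT1 (-0.29) fell. Of these, SLITRK5, SLC18B1, CWC27, SAMD9L and CAV1 were called the same way in the Bmi1-shRNA line. Of the 573 falls described above, 45.7% were below 0 in the control line, against 50.8% of all genes. Their median there was 0.007, and the median of the 217 rises was 0.013. The line difference at 48 h was called for 378 genes, 316 lower in the Bmi1-shRNA line and 62 higher (0.422%).

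Most of the 48 h falls could be seen earlier in weaker form. At 24 h, 485 of the 573 (84.6%) were already below 0, with a median of -0.15, and at 32 h 510 (89%), with a median of -0.23. Over all genes 44.5% and 44.0% were below 0 at those times. Fewer passed on their own: 238 genes were called at 24 h (1.62%) and 323 at 32 h (2.2%; 1.67% lower and 0.524% higher), against 790 at 48 h. Falls and rises had different courses. The 160 genes called lower at 24 h (1.09% of those tested) had medians of -0.41, -0.49 and -0.61 at 24, 32 and 48 h, and 124 of them were farther from 0 at 48 h than at 24 h. The 78 genes called higher at 24 h (0.53%) had medians of 0.36, 0.12 and 0.21, and only 15 were farther from 0 at 48 h. These genes were chosen by their 24 h call, which selects high values at that time, so the comparison is descriptive.

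**Figure D5:**
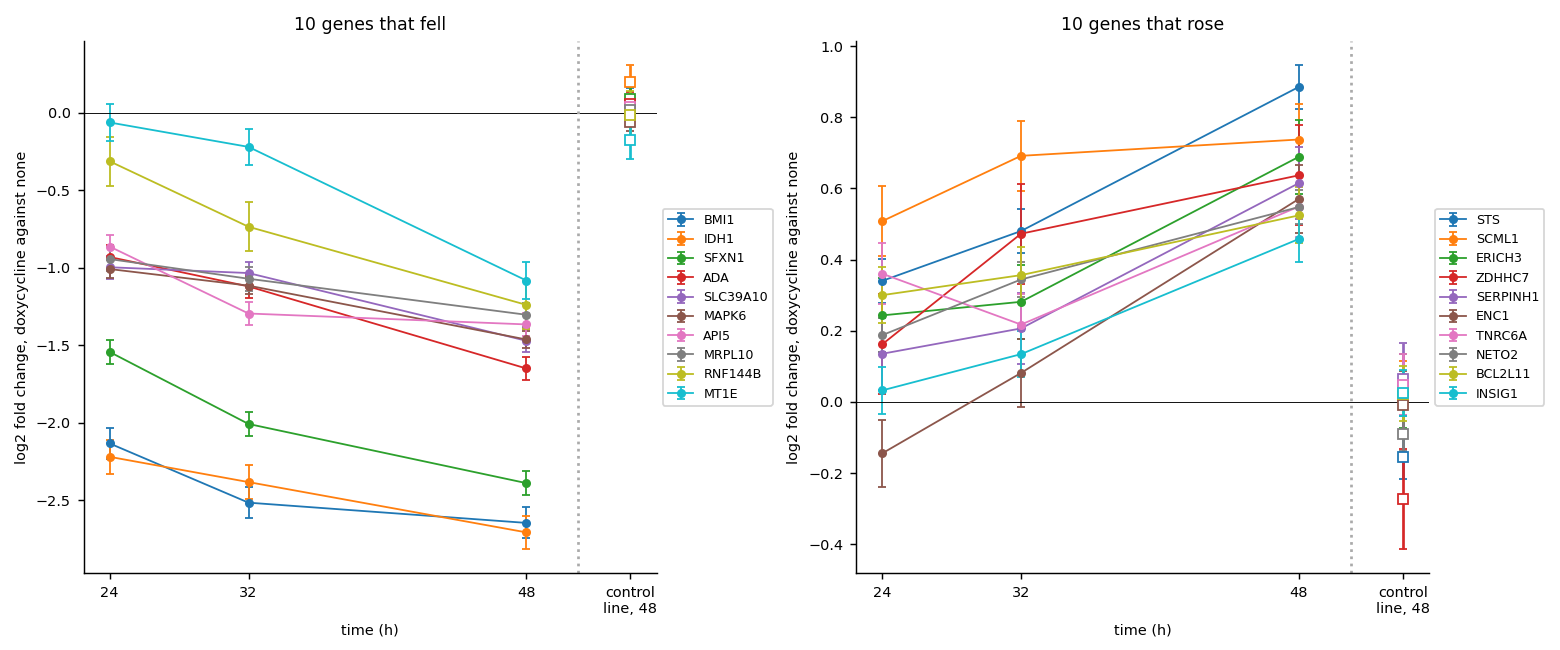
Log2 fold change with doxycycline against time in the Bmi1-shRNA line (dots, bars are SEs) for 10 genes that fell (left) and 10 that rose (right) at 48 h, with the control-shRNA line at 48 h as open squares. BMI1 and IDH1 were below -2 from 24 h on, MT1E and RNF144B were much lower at 48 h than at 24 h, and ENC1 and INSIG1 were near or below 0.1 at 24 h and above 0.4 at 48 h.

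Whether the effect itself differed from 24 h was tested directly. The difference, 48 h minus 24 h, was called for 72 genes (0.49%), 60 of them lower (0.408%) and 12 higher (0.0816%). The count was 39 without uninduced 24 h replicate 2, 46 without induced 24 h replicate 2 and 47 without uninduced 48 h replicate 2. BMI1 was not among the 72: its effect was -2.13 at 24 h, -2.52 at 32 h and -2.65 at 48 h (adjusted p of the difference = 0.108). IDH1 was not among them either (-2.22, -2.38 and -2.71). SFXN1 deepened from -1.54 to -2.39 (difference -0.85, limma adjusted p = 3.32e-05), ADA from -0.93 to -1.65, MAPK6 from -1.01 to -1.46 and SLC39A10 from -0.997 to -1.47.

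Other genes had weaker effects at 24 h than at 48 h, or effects of opposite sign. MT1E went from -0.06 at 24 h to -0.22 at 32 h and -1.08 at 48 h (difference -1.02, limma adjusted p = 0.000723). MT2A went from -0.28 to -0.40 and -0.89, and MT1H from 0.01 to -0.36 and -0.72, and both differences passed. Of the 6 metallothioneins 0 were called at 24 h, 2 at 32 h and 5 at 48 h. RNF144B went from -0.31 to -0.74 and -1.24, and ID3, an inhibitor of helix-loop-helix factors, from 0.28 to -0.23 and -0.66. Among rises STS went from 0.34 to 0.48 and 0.89, ENC1 from -0.14 to 0.08 and 0.57 and the glutamine transporter SLC38A5 from -0.30 to -0.05 and 0.31. STS was already called higher at 24 h (limma adjusted p = 0.000738), and SLC38A5 was called lower at that time (limma adjusted p = 0.0222). Between 32 and 48 h only VMA21 passed (1 gene, 0.0068%; difference -0.52), going from -0.56 to -1.08, while 999 genes had an unadjusted p under 0.05. That count ranged from 0 to 6 when single arrays were left out. ADA, MT1E, HSD17B8 and TMBIM6 had the next smallest p-values there and did not pass.

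Gene length and position were described for the falls without a test. The median genomic span of the falls was 41303 bases, against 27138 for all genes and 30833 for the rises. Among genes with a signal of at least 100 the figures were 42074 for falls, 30259 for all and 26925 for rises. Over the chromosomes the share of falls ran from 0.76% on chromosome 19 (8 of 1056 genes) to 6.51% on chromosome 5 (43 of 661), beside 3.9% of all genes. These ends were picked after the values were seen. Among bright genes the shares on chromosomes 19 and 5 were 1.66% and 10.18%, beside 6.49%. Other retained probe sets of the called genes, which the calls did not use but which come from the same arrays, had the same sign in 635 of 818 cases for falls (77.6%) and 242 of 292 for rises (82.9%).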

How the data were processed

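Total RNA was hybridized to Affymetrix U133 Plus 2 arrays, 1 array per sample. The authors deposited linear intensity values, 1 MAS5 signal per probe set, with no version in the submitters' processing notes. Titles put the arrays in 14 groups of 3. At 0 h the Bmi1-shRNA arrays have labels that contradict each other. They entered the variance estimate, the probe set filter, the offset and the choice of probe set per gene, but no comparison. No arrays held identical values, and arrays were not paired by replicate number.

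Probe sets were kept if 3 or more of the 42 arrays reached the array's own median. Signals were transformed as log2(signal + 5.4), the offset being the 25th percentile of the whole value table, which makes fold changes of dim genes smaller. Each of 14705 genes was read from its brightest kept probe set with a single symbol, and BMI1 from one annotated also to its readthrough transcript. In limma 3.58.1 (R 4.3.3), 14 group means were estimated with moderated variances (eBayes with intensity trend, 28 residual and 8.64 prior degrees of freedom), tests were two-sided, and a call is a Benjamini-Hochberg adjusted p under 0.05 among the 14705. On simulated data the fit made 7 false calls for the 48 h comparison.

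Named are BMI1, the 12 highest and 12 lowest called changes, the 12 highest with a signal of at least 100, the 5 highest and lowest of each other comparison (the 5 smallest p where fewer pass), up to 5 called members of each list and a set of fixed regulators. Bright falls of at least 2-fold and further list members were added after their values were seen. The members, the 48 lists (1584 symbols, 1368 tested) and the tests were chosen with earlier results of these data known. Alternatives tried were other pseudocounts, quantile normalization, other filters, other uses of probe sets, no trend, fewer arrays, a replicate block and leaving out each array.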

Additional observations from a re-analysis of the deposited data

Results flagged for a closer look

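Doxycycline effects that differed between lines or times by a limma test of the difference itself were singled out. Between the lines at 48 h the test called 378 genes. The lowest differences (Bmi1-shRNA effect minus control effect, log2) were IDH1 -2.91, BMI1 -2.71, SFXN1 -2.48, MED12L -2.08 and LOC100507351 -2.08, and the highest were KIR3DL1 2.33, LRP5L 1.80, SOX2 1.27, STS 1.04 and TMC5 1.00. MED12L, LOC100507351, KIR3DL1 and LRP5L had group means of at most 39 in the Bmi1-shRNA line at 48 h, were not called in either line alone and moved in opposite directions in the 2 lines. TMC5 changed by 0.10 in the Bmi1-shRNA line and by -0.90 in the control line.

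Between 48 h and 24 h in the Bmi1-shRNA line the test called 72 genes. The lowest differences were MT1E -1.02, ID3 -0.94, RNF144B -0.93, R3HDM2 -0.93 and SFXN1 -0.85, and the highest were SYT5 2.32, ARHGAP11A 0.79, ENC1 0.71, SLC38A5 0.61 and STS 0.55. SYT5 had signals of 1.9, 22.1 and 8.3 without and 15.5, 19.5 and 16.1 with doxycycline at 48 h, and its difference rests on a 24 h effect of -1.65. Between 48 h and 32 h it called 1 gene, VMA21, at -0.52.

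Probe sets without a gene symbol in the annotation were outside the comparisons. Of 5418 such probe sets retained, 71 were called in the Bmi1-shRNA line at 48 h (1.31%), 53 lower and 18 higher, and 0 in the control line. Of probe sets with a single symbol 4.28% were called.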

How the results depend on the processing

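The call of 790 genes at 48 h became 1348 with every retained probe set as a feature and 462 with only the 48 h groups fitted (fewer residual degrees of freedom). It ran from 617 to 677 with 1 array left out. Of the 790 genes, 456 were called again with only the 48 h groups, 504 with averaged probe sets and 705 to 783 in the other settings that kept all of them. The line difference (378 genes) became 583 and 165 in the first pair of settings and ran from 295 to 369 without single arrays. The control line's 7 calls became 11 after quantile normalization, 4 with every probe set, 3 with the 48 h groups and 4 to 7 without single arrays, the 4 being without uninduced control replicate 3. The 72 calls of 48 h minus 24 h ran from 39 to 66. The single call of 48 h minus 32 h became 15 after quantile normalization, 10 with a filter at the 75th percentile, 3 with averaged probe sets, 2 without the 0 h arrays, 0 without the trend and 0 to 6 without single arrays. It was 0 without any of 3 arrays at 48 h (uninduced 2 and 3, induced 3) and any of 4 at 32 h (uninduced 1 and 2, induced 1 and 3). Neither time difference can be computed from the 48 h groups alone. BMI1's change ran from -2.77 to -2.56 and its line difference from -2.83 to -2.62. Causes of these movements were not tested, except where fewer arrays or more features are the setting itself.

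Deviations from group means correlated at -0.171 to -0.042 (Bmi1-shRNA) and -0.033 to 0.123 (control) between arrays of the same number. The mean was -0.087 for same and 0.044 for different numbers in the Bmi1-shRNA line. In the control line it was 0.050 and -0.025. Deviations cancel within a group, so the means for same and different numbers offset each other. Whether replicate numbers pair the arrays thus cannot be decided from these values. With the replicate block the counts were 756, 354, 52, 4 (control line) and 0 (48 h minus 32 h).

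Of 162 called genes named, 87 kept their call in each setting and left-out array, and 1 reversed: NUP205, at -0.066 when its probe sets were averaged. Genes without a call also changed sign. Averaged probe sets gave TMC5 -0.221, RING1 -0.096 and CDKN2A 0.000. Without single arrays, TMC5 ran from -0.051 to 0.221, BCL2 from -0.163 to 0.006 and CDKN1A from -0.204 to 0.050.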
